A study of Homo sapiens with 10 samples.

Results

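NF-kB is a family of dimeric transcription factors that wait in the cytoplasm bound to inhibitory IkB proteins. A receptor for a microbial product, for interleukin 1 or for tumour necrosis factor recruits adaptors and ubiquitin ligases, these switch on the IkB kinase complex, and the inhibitor is marked for destruction, which frees the factor to enter the nucleus. A second, slower branch runs through the kinase NIK and the processing of the NFKB2 precursor. Several of the genes that NF-kB switches on encode its own inhibitors, so the pathway restrains itself, and in the gut epithelium it is known for its part in the response to microbes and to inflammatory cytokines.

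The genes described here are 40 components and targets of this pathway, chosen by symbol, among 26485 genes listed. They comprise 5 Rel factors, 5 IkB proteins, 5 kinases, 10 receptor adaptors and linked ubiquitin ligases and kinases, 2 Toll-like receptors, 4 brakes, 3 cytokine ligands and 6 effector targets. Expression was measured by sequencing of polyadenylated RNA in SW480, an established line from a human colorectal cancer, labelled wild type. The line was split by surface level of ROBO1, a receptor of the Slit guidance proteins, into a positive population, SW480-CBC in the labels, and a negative one, SW480-RSC, named ROBO1pos and ROBO1neg below. Each population has 5 replicates, no treatment is named, and the design holds 1 contrast between them. Whether the replicates were grown as separate cultures is not stated. The p-values therefore speak of the variation among these 10 libraries, part or all of which may be technical.

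The libraries held 23228686 to 29539100 reads on genes. The sorting receptor matched the labels, with ROBO1 at 429.5 ± 26.7 CPM in ROBO1pos and 7.25 ± 1.47 CPM in ROBO1neg (mean ± SD, n = 5 per group). Levels are CPM, the count relative to the library's gene reads times 1e6, scaled by TMM. A log2 fold change below 0 means a higher level in ROBO1neg. A gene was called where edgeR's quasi-likelihood test gave a Benjamini-Hochberg adjusted p under 0.05 over all 14932 genes tested. Epithelial markers were abundant, with summed levels of 10 genes from 5778 to 7034 CPM in ROBO1pos and from 7981 to 10495 CPM in ROBO1neg, although KRT20 had 0 counts in every library. These sums were mostly KRT8 and KRT18, and the markers moved apart: EPCAM, VIL1 and CDX1 were called higher in ROBO1pos, and KRT8, KRT18, KRT19 and CDH1 higher in ROBO1neg. VIL1 was at 503 ± 23.3 CPM in ROBO1pos and 27.7 ± 3.14 CPM in ROBO1neg, and EPCAM at 679.9 ± 22.9 and 303 ± 12.8 CPM. The 12 leukocyte markers summed to 4.06 to 5.17 CPM in ROBO1pos and 5.01 to 6.90 CPM in ROBO1neg, and FCGR3A and AIF1 were at 0 in all of them. In the fibroblast list, COL1A1 was higher in ROBO1neg and LUM higher in ROBO1pos, and the 8 genes summed to 10.4 to 14.1 CPM in ROBO1pos and 14.0 to 22.6 CPM in ROBO1neg. The 7 endothelial markers summed to at most 0.889 CPM in ROBO1pos and 4.40 CPM in ROBO1neg. The part of other cell types in the differences below was not tested. In bulk RNA, fewer cells that express a gene and less RNA per cell cannot be told apart.

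Most of the pathway's genes were higher in ROBO1neg. Of the 40 members, 29 were called higher in ROBO1neg, 4 were called higher in ROBO1pos (REL, SOD2, RIPK2 and IRAK1), 2 were not called (CHUK and NFKBIB) and 5 had too few counts to be tested. Of all tested genes 82% were called, 40.4% as higher in ROBO1neg and 41.6% as higher in ROBO1pos. At least 2-fold higher in ROBO1neg were 18 members, against 16.8% of all tested genes, and 0 members were at least 2-fold higher in ROBO1pos, against 13.5%. No overlap between the libraries of both groups was seen for 29 members, and for 71.9% of all tested genes. The median log2 fold change was -1.10 over the 35 tested members and 0.02 over all tested genes. When a difference of more than 1.5-fold was required, 21 members were called higher in ROBO1neg and 0 higher in ROBO1pos, against 22.1% and 19.7% of all tested genes.

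**Figure D1:**
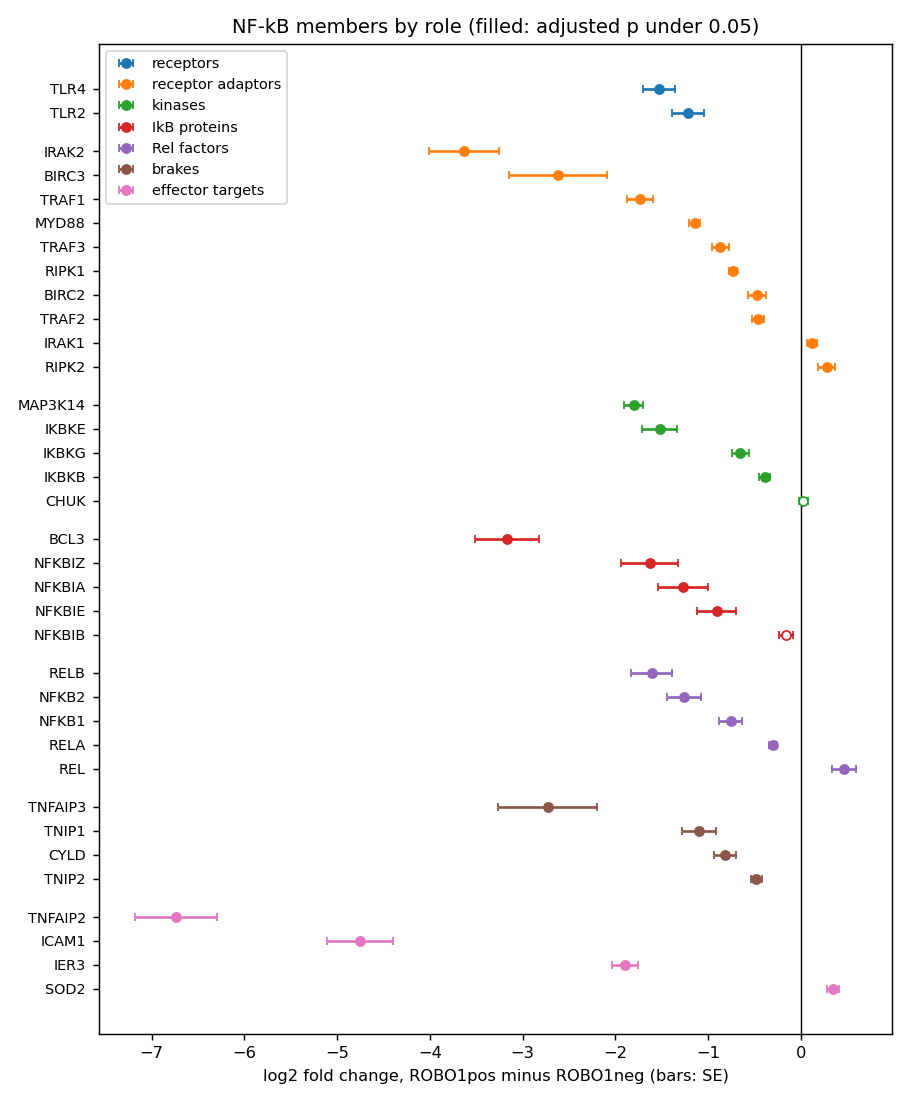
Log2 fold change (ROBO1pos minus ROBO1neg) of the 35 tested members by role; bars are standard errors, and filled points passed an adjusted p under 0.05. The effector targets TNFAIP2 and ICAM1 lie farthest to the left, at -6.74 and -4.76, and REL lies farthest to the right, at 0.47.

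The 5 libraries of ROBO1neg were uneven for a part of these genes, and each result below has to be read with this in view. Replicates 3 and 4 had the 2 highest levels of the group for 24 of the 35 tested members, a pattern found in 14.3% of 13381 tested genes with a mean of at least 1 CPM in ROBO1neg. These 2 replicates were chosen after the values had been seen. BIRC3 spanned 8.004-fold between the lowest and the highest ROBO1neg library, TNFAIP3 6.77-fold, TNFAIP2 3.49-fold, NFKBIZ 3.35-fold, ICAM1 3.10-fold and NFKBIA 2.92-fold. A span of at least 2-fold in ROBO1neg was seen for 12 of 35 members and for 3.59% of those genes. Other members were nearly level: MYD88 spanned 1.06-fold, RELA 1.07-fold and RIPK1 1.10-fold. In ROBO1pos the spans were at least 2-fold for 3 of 33 members at 1 CPM or more, against 4.87% of 13358 genes, and replicates 3 and 4 were the 2 highest for 13 members, against 9.79%. Both held in the same gene, replicates 3 and 4 highest in each population, for 12 of 33 members and for 1.81% of 12578 genes.

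Depth and read shares of these libraries were as follows. ROBO1neg had 14.1% to 14.9% of reads with no feature and 20.5% to 21.5% of reads aligned to several places, and replicates 3 and 4 held the second lowest and the highest gene total within their group. Pearson correlations of log2 CPM over tested genes between ROBO1neg libraries ran from 0.992 to 0.996, with the highest between replicates 3 and 4. When ROBO1neg replicates 3, 4 and 5 were left out, a choice made after seeing the data, the median log2 fold change was -0.73 over the 36 members then tested, and 30 of the 33 called members were still called in the same direction. Those no longer called were NFKBIE, RIPK2 and IRAK1. For 10 members the fold change moved by over 1.5 times, and all 10 moved towards a smaller difference: RELB, NFKBIA, NFKBIE, NFKBIZ, BCL3, TNFAIP2, TNFAIP3, BIRC3, ICAM1 and IRAK2. Replicates 3, 4 and 5 held the highest ROBO1neg levels of each of these genes, so the direction follows from the choice. Without ROBO1neg replicates 1 and 2, a choice also made after seeing the data, all 10 differed more. BIRC3 was then at -3.19, TNFAIP3 at -3.26 and NFKBIA at -1.66 (log2). Leaving out any 1 library moved no member's fold change by over 1.5 times.

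**Figure D2:**
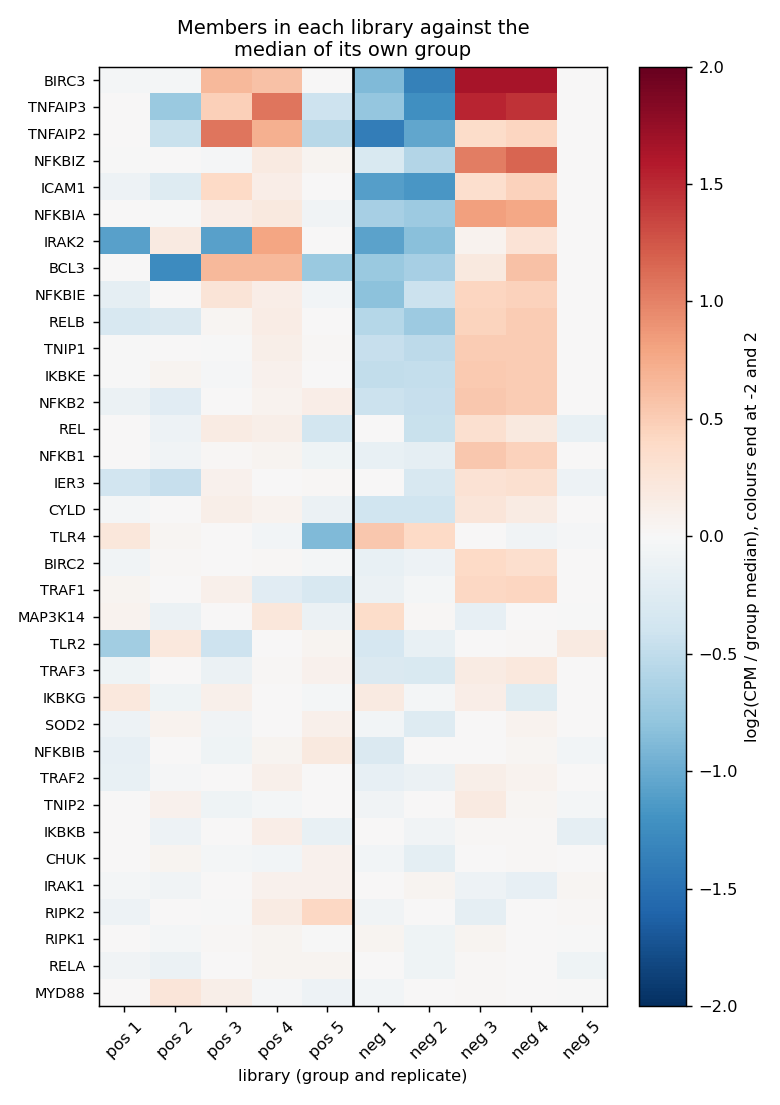
Level of each tested member in each library as log2 of its CPM over the median of its own group, with members ordered by their span in ROBO1neg from BIRC3 (8.004-fold) at the top to MYD88 (1.06-fold) at the bottom. In the upper rows ROBO1neg replicates 1 and 2 are below the group's median and replicates 3 and 4 above it, while the lower rows are nearly level.

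Promoter windows of RefSeq, from 250 bases before to 50 bases after a transcript start on GRCh38.p14, were matched by symbol for 35 of the 40 members. The kappa-B consensus, the element of 10 bases that NF-kB dimers bind, was searched on both strands. It was found in a window of 13 of the 30 tested members with one (43.3%), and of 17.6% of the 10743 tested genes with one. The median GC content, taken at each gene's richest window, was 72.7% for those members and 67.0% for those genes. Several members are textbook NF-kB targets known for such elements, so this share is no independent evidence. The matches were in NFKB1, NFKB2, REL, NFKBIA, NFKBIB, NFKBIZ, BCL3, TNFAIP3, TNIP1, BIRC3, TRAF3, CYLD and IRAK1. The promoters of 4 members are shown as the 250 bases before the start, read 5′ to 3′ along the gene, with capitals for bases that match the consensus on either strand. NFKBIA, TNFAIP3 and BIRC3, which hold a match, are shown because their levels spanned widely between ROBO1neg libraries. They are not the widest by span alone, since TNFAIP2, NFKBIZ and ICAM1 spanned more than NFKBIA there and are not shown. A link between span and matches was not tested. REL is shown because it is the Rel factor called in the other direction. The regions are chr14:35404750-35404999, minus strand, for NFKBIA, chr6:137867009-137867258, plus strand, for TNFAIP3, chr11:102317234-102317483, plus strand, for BIRC3, and chr2:60881324-60881573, plus strand, for REL.
NFKBIA: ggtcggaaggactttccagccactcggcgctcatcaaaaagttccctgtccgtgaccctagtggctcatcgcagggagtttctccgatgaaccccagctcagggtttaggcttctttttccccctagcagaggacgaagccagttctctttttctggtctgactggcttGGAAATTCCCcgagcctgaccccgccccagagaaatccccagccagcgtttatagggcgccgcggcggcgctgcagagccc
TNFAIP3: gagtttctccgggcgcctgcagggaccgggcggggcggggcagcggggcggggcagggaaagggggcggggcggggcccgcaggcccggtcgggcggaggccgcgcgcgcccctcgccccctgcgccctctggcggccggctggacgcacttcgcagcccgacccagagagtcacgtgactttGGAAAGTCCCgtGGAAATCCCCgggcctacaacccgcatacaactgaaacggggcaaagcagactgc
BIRC3: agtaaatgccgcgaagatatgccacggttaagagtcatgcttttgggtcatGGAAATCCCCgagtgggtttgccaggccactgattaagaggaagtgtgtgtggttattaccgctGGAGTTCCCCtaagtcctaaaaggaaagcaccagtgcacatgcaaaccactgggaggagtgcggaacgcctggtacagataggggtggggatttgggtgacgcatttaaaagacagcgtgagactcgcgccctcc
REL: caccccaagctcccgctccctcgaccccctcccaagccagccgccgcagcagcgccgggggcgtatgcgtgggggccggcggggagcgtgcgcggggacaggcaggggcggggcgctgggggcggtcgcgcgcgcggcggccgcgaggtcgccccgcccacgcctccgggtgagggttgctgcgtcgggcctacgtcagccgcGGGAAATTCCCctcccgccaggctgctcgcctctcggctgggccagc
The match in NFKBIA begins 81 bases before the start, those in TNFAIP3 67 and 55 bases before it and those in BIRC3 199 and 135 bases before it. REL has 2 overlapping matches that begin 47 and 46 bases before its start. TNFAIP2 and ICAM1, the members with the largest differences, have no match in these windows, which says only that these letters are not in them. The search allowed no mismatch, and the ICAM1 window holds TGGAAATTCC, which departs from the consensus only at its first base.

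Transcripts of the 3 cytokine ligands among the members were at or next to 0 counts, which says nothing about other ligands. TNF, which encodes tumour necrosis factor, and IL1A, which encodes interleukin 1 alpha, had 0 counts in all 10 libraries. A count of 0 over a group allows up to 0.0235 CPM in ROBO1neg and 0.0236 CPM in ROBO1pos, for counting error only. IL1B, which encodes interleukin 1 beta, had 1 count in all, in ROBO1pos.

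Both Toll-like receptors and the adaptor they share were higher in ROBO1neg. TLR4, which senses bacterial lipopolysaccharide, was at 21.9, 19.3, 18.7, 18.1 and 10.1 CPM in ROBO1pos replicates 1 to 5 and at 65.0, 59.3, 44.9, 42.8 and 43.9 CPM in ROBO1neg replicates 1 to 5. Its groups did not overlap (log2 fold change -1.53, SE 0.17, adjusted p = 1.4e-06), and ROBO1pos replicate 5 was the lowest library. TLR2, which senses bacterial lipoproteins, was at 1.39, 2.63, 1.70, 2.26 and 2.34 CPM in ROBO1pos and 3.91, 4.48, 4.95, 5.05 and 5.63 CPM in ROBO1neg, also without overlap (log2 fold change -1.22, SE 0.17, adjusted p = 1.2e-05). MYD88, the adaptor below most Toll-like receptors and the interleukin 1 receptor, was at 24.4, 28.9, 26.5, 24.0 and 22.8 CPM in ROBO1pos and 54.2, 56.7, 57.2, 56.3 and 56.2 CPM in ROBO1neg. It was 2.21-fold higher in ROBO1neg with little spread (log2 fold change -1.15, SE 0.06, adjusted p = 2.9e-10). TLR4 and MYD88 did not follow the order of libraries seen for BIRC3: TLR4 was highest in ROBO1neg replicates 1 and 2, and MYD88 was level. MYD88 lies among genes that were also higher in ROBO1neg, with a median of -0.61 over the 20 nearest tested genes on each side, and was at -0.54 once that median was subtracted. For TLR4 the neighbours' median was -0.53.

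The kinases that MYD88 recruits divided. IRAK2 was at 0.0774, 0.185, 0.0775, 0.283 and 0.164 CPM in ROBO1pos and 1.10, 1.29, 2.43, 2.80 and 2.31 CPM in ROBO1neg, a low level but one without overlap (log2 fold change -3.64, SE 0.38, adjusted p = 5.8e-07). Without ROBO1neg replicates 3, 4 and 5 its log2 fold change was -2.90. IRAK1 was called higher in ROBO1pos by a small margin, with 595 ± 31.7 CPM against 549 ± 34.3 CPM, overlapping libraries and an adjusted p of 0.046 in edgeR's test, and the call was lost in several alternatives, among them DESeq2, RLE scaling and the fits without any one of 6 libraries (ROBO1pos replicates 3, 4 and 5 and ROBO1neg replicates 1, 3 and 4). RIPK2, the kinase below the NOD receptors, was higher in ROBO1pos at 23.1 ± 3.42 against 19.0 ± 1.08 CPM, with overlap and a log2 fold change of 0.28 (SE 0.09, adjusted p = 0.011).

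BIRC2, BIRC3, TRAF1, TRAF2, TRAF3 and RIPK1, the members that act at tumour necrosis factor receptors, were called higher in ROBO1neg by different amounts. Among the further components, described later, the receptors TNFRSF1A, TNFRSF1B and LTBR and the adaptors TRADD and TRAF6 were also called higher in ROBO1neg. Their log2 fold changes were -0.31, -0.64, -1.10, -1.02 and -0.65. The adaptor TRAF5 went the other way, at 48.1 ± 5.41 CPM in ROBO1pos and 16.9 ± 1.24 CPM in ROBO1neg (adjusted p = 4.2e-10). The subunits of the linear ubiquitin ligase, RNF31, RBCK1 and SHARPIN, were not called, at log2 fold changes of -0.09, 0.04 and -0.0026. BIRC3, which encodes the ubiquitin ligase cIAP2 and is itself induced by NF-kB, was at 8.13, 8.08, 13.1, 12.5 and 8.34 CPM in ROBO1pos and 20.4, 14.7, 118, 118 and 37.6 CPM in ROBO1neg. All ROBO1neg libraries lay above all ROBO1pos libraries, but ROBO1neg replicate 2 was close to ROBO1pos replicate 3, while ROBO1neg replicates 3 and 4 were far above both. The log2 fold change was -2.62 (SE 0.53, adjusted p = 0.00039) over all libraries and -0.82 (adjusted p = 0.0040) without ROBO1neg replicates 3, 4 and 5. BIRC2, which encodes its relative cIAP1, differed less, at 89.5 ± 2.61 against 124 ± 22.3 CPM (log2 fold change -0.47, SE 0.10, adjusted p = 0.00042). TRAF1, an adaptor induced by NF-kB, was at 3.68, 3.56, 3.84, 3.03 and 2.84 CPM in ROBO1pos and 9.35, 9.86, 13.5, 13.6 and 10.1 CPM in ROBO1neg, with no overlap (log2 fold change -1.74, SE 0.14, adjusted p = 3.2e-08). TRAF2, which brings the ligases to the receptor, TRAF3, which holds NIK at a low level, and RIPK1, the scaffold kinase of the complex, were also called higher in ROBO1neg, at log2 fold changes of -0.47, -0.87 and -0.73. RIPK1 had little spread, at 29.2 ± 0.633 against 48.6 ± 1.902 CPM (adjusted p = 1.1e-09). The neighbours' median for RIPK1 was -0.37 (log2), which leaves -0.37 for RIPK1. For BIRC2, BIRC3, TRAF1, TRAF2 and TRAF3 the neighbours' medians were 0.23, 0.24, -0.47, -0.20 and -0.07.

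Among the 5 members grouped here as kinases, MAP3K14 and IKBKE differed most. MAP3K14, which encodes NIK, the kinase that starts the alternative branch, was at 10.6, 9.38, 10.2, 11.9 and 9.33 CPM in ROBO1pos and 44.5, 35.4, 30.7, 34.6 and 34.3 CPM in ROBO1neg (log2 fold change -1.81, SE 0.10, adjusted p = 6.2e-10). It was 3.49-fold higher in ROBO1neg, without overlap and with its highest value in ROBO1neg replicate 1. Its neighbours were at a median of -0.73 (log2), and it was at -1.07 once this was subtracted. An antisense gene, MAP3K14-AS1, overlaps it and was at 2.03 ± 0.389 against 3.97 ± 0.570 CPM, and no source used here says whether counting used the strand. IKBKE, an IKK-related kinase that is induced by NF-kB, was at 15.2, 16.0, 15.1, 16.3 and 15.3 CPM in ROBO1pos and 30.0, 30.2, 60.9, 60.1 and 42.2 CPM in ROBO1neg (log2 fold change -1.52, SE 0.19, adjusted p = 3.6e-06). Its ROBO1pos libraries were nearly level, and its ROBO1neg libraries followed the order seen for BIRC3, with replicates 3 and 4 on top.

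Among the 3 subunits of the classical IKK complex, IKBKB and IKBKG were called higher in ROBO1neg and CHUK was not called. IKBKB, the catalytic subunit IKK-beta, was called higher in ROBO1neg at -0.39 (SE 0.06, adjusted p = 3.4e-05). IKBKG, the regulatory subunit NEMO, was at -0.65 (SE 0.09, adjusted p = 1.6e-05), but a near-identical pseudogene copy exists and its counts are uncertain. CHUK, the subunit IKK-alpha, was at 42.2 ± 1.71 CPM in ROBO1pos and 41.5 ± 2.42 CPM in ROBO1neg and was not called (log2 fold change 0.03, SE 0.05, adjusted p = 0.64).

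Of the 5 genes for IkB proteins, 4 were called higher in ROBO1neg. NFKBIA, which encodes IkB-alpha, the inhibitor that is destroyed and made anew in each round of activation, was at 18.5, 18.4, 20.4, 21.1 and 17.7 CPM in ROBO1pos and 25.7, 24.6, 71.7, 69.5 and 40.6 CPM in ROBO1neg. The groups did not overlap, yet ROBO1neg replicates 1 and 2 were nearer to ROBO1pos than to ROBO1neg replicates 3 and 4 (log2 fold change -1.27, SE 0.27, adjusted p = 0.00058). Without ROBO1neg replicates 3, 4 and 5 the log2 fold change was -0.40 (adjusted p = 0.0017). NFKBIE, which encodes IkB-epsilon, was at 6.31, 7.15, 8.56, 7.88 and 6.90 CPM in ROBO1pos and 7.73, 10.1, 18.4, 18.9 and 13.7 CPM in ROBO1neg. Its groups overlapped, since ROBO1neg replicate 1 was within the ROBO1pos range, and the call (log2 fold change -0.91, SE 0.21, adjusted p = 0.0012) was lost without ROBO1neg replicates 3, 4 and 5 (log2 fold change -0.29, adjusted p = 0.10). NFKBIB, which encodes IkB-beta, was at 40.1, 44.8, 42.0, 46.6 and 51.4 CPM in ROBO1pos and 42.8, 52.5, 52.3, 53.8 and 50.5 CPM in ROBO1neg, with wide overlap. It missed the threshold (log2 fold change -0.16, SE 0.07, adjusted p = 0.053) and passed it in DESeq2, under RLE scaling, without the filter, with the replicate number as a block, and when ROBO1pos replicate 5, ROBO1neg replicate 1 or ROBO1neg replicates 1 and 2 were left out.

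Both atypical IkB members, which act in the nucleus and can aid transcription, were called higher in ROBO1neg. NFKBID, an atypical IkB gene from the further components, was called higher in ROBO1pos with overlapping libraries, at 9.57 ± 1.07 against 7.44 ± 0.960 CPM (log2 fold change 0.36, SE 0.11, adjusted p = 0.0062). BCL3, a partner of p50 and p52 dimers, was at 0.619, 0.259, 0.969, 0.970 and 0.370 CPM in ROBO1pos and 3.53, 3.70, 6.73, 8.80 and 5.88 CPM in ROBO1neg. It was 9.0-fold higher in ROBO1neg, and no library of one group reached the other (log2 fold change -3.17, SE 0.34, adjusted p = 9.0e-07). Without ROBO1neg replicates 3, 4 and 5 its log2 fold change was -2.51. NFKBIZ, which encodes IkB-zeta, a nuclear cofactor for secondary response genes, was at 3.56, 3.59, 3.53, 4.08 and 3.74 CPM in ROBO1pos and 6.88, 5.64, 17.3, 18.9 and 8.47 CPM in ROBO1neg. The ROBO1pos libraries were nearly level while the ROBO1neg libraries spread 3.35-fold (log2 fold change -1.63, SE 0.30, adjusted p = 0.00019), and the log2 fold change was -0.77 without ROBO1neg replicates 3, 4 and 5.

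Among the Rel factors, 4 were higher in ROBO1neg and REL was higher in ROBO1pos. RELA, the p65 subunit of the classical dimer, was at 70.6, 68.8, 74.5, 77.3 and 77.3 CPM in ROBO1pos and 92.6, 87.5, 93.9, 93.0 and 87.4 CPM in ROBO1neg. The difference was small, but the groups did not overlap (log2 fold change -0.30, SE 0.04, adjusted p = 1.9e-05). NFKB1, the precursor of p50, was at 49.3, 46.8, 50.1, 51.0 and 46.7 CPM in ROBO1pos and 66.0, 64.8, 107, 101 and 73.5 CPM in ROBO1neg (log2 fold change -0.76, SE 0.13, adjusted p = 7.7e-05). The subunits of the alternative branch differed more. NFKB2, the precursor of p52, was at 22.8, 21.3, 24.9, 26.0 and 27.2 CPM in ROBO1pos and 40.7, 39.9, 79.4, 77.4 and 54.7 CPM in ROBO1neg (log2 fold change -1.26, SE 0.18, adjusted p = 1.8e-05). RELB, the partner of p52, was at 9.52, 9.75, 12.2, 13.1 and 11.9 CPM in ROBO1pos and 22.9, 20.5, 46.1, 48.4 and 33.9 CPM in ROBO1neg (log2 fold change -1.61, SE 0.22, adjusted p = 1.1e-05). Neither NFKB2 nor RELB had overlapping groups, and for both, as for NFKB1, ROBO1neg replicates 3 and 4 were the highest libraries. With ROBO1neg replicates 3, 4 and 5 left out, NFKB1 was at -0.43, NFKB2 at -0.73 and RELB at -0.95 (log2). REL, which encodes c-Rel, was at 28.1, 26.2, 31.4, 30.5 and 21.8 CPM in ROBO1pos and 19.8, 14.6, 24.7, 22.7 and 17.9 CPM in ROBO1neg. The groups overlapped (log2 fold change 0.47, SE 0.13, adjusted p = 0.0043), and the 20 nearest tested genes on each side of REL had a median log2 fold change of 0.46, which leaves 0.01 for REL. For RELA, NFKB1, NFKB2 and RELB the neighbours' medians were -0.14, 0.49, 0.32 and 0.33, which leaves -0.16 for RELA.

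**Figure D3:**
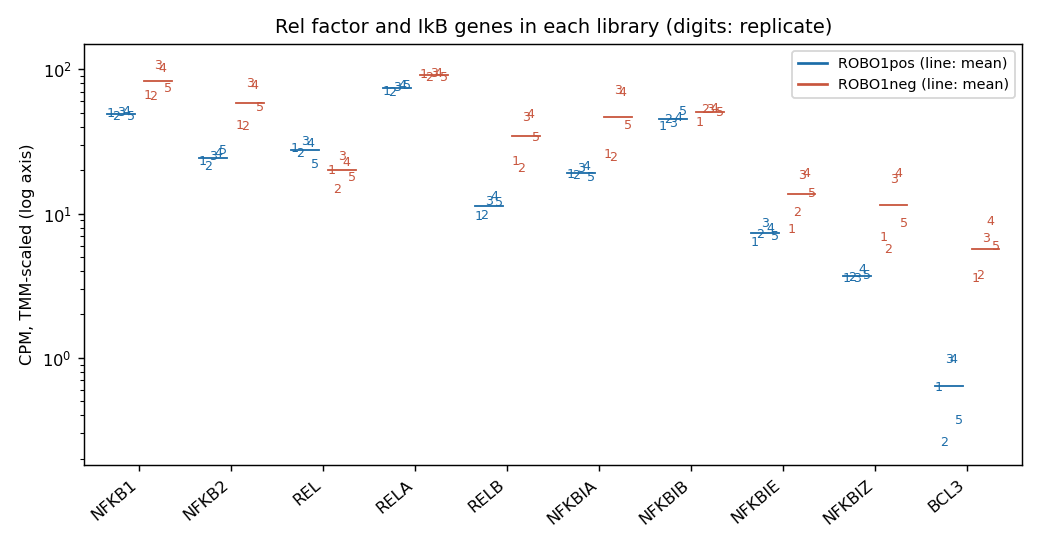
CPM of the Rel factor and IkB genes in each library on a log axis, with each digit marking the replicate and each line the group's mean. For NFKB2, RELB, NFKBIA, NFKBIE and NFKBIZ the digits 3 and 4 are highest in ROBO1neg, and for REL the ROBO1pos mean of 27.6 CPM is above the ROBO1neg mean of 19.95 CPM.

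The 4 members grouped here as brakes were called higher in ROBO1neg, as were 40.4% of all tested genes. The genes of the inhibitory IkB proteins, described above, also restrain the pathway and are not in this group. Further negative regulators outside the members went both ways. PDLIM2, TANK and ZC3H12A were called higher in ROBO1neg, at -2.43, -0.35 and -1.59 (log2). OTULIN, a deubiquitinase of linear chains, and NKRF, a repressor of NF-kB promoters, were called higher in ROBO1pos at 0.42 and 0.56 (log2), and OTUD7B, a deubiquitinase, was not called (log2 fold change -0.12, SE 0.06, adjusted p = 0.064). TNFAIP3, which encodes A20, an enzyme that edits ubiquitin chains on the receptor complex, was at 1.86, 1.11, 2.596, 3.88 and 1.397 CPM in ROBO1pos and 5.48, 4.00, 27.1, 25.7 and 9.41 CPM in ROBO1neg. ROBO1neg replicate 2 was only just above ROBO1pos replicate 4, whereas ROBO1neg replicates 3 and 4 were far above all others (log2 fold change -2.73, SE 0.54, adjusted p = 0.00031). Without ROBO1neg replicates 3, 4 and 5 the log2 fold change was -1.14 (adjusted p = 0.015). TNIP1, which binds A20 and ubiquitin, was at 75.5, 76.3, 75.5, 82.6 and 77.1 CPM in ROBO1pos and 114, 109, 223, 224 and 157 CPM in ROBO1neg (log2 fold change -1.10, SE 0.18, adjusted p = 6.0e-05). Its neighbours had a median log2 fold change of -0.53, which leaves -0.56 for TNIP1. Without ROBO1neg replicates 3, 4 and 5 the log2 fold change of TNIP1, before any subtraction, was -0.54. CYLD, a deubiquitinase, and TNIP2, a further A20-binding protein, had log2 fold changes of -0.82 (SE 0.12, adjusted p = 1.4e-05) and -0.48 (SE 0.06, adjusted p = 2.8e-06).

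The largest fold differences among the 35 tested members were in 2 effector targets, TNFAIP2 and ICAM1. TNFAIP2, a gene induced by tumour necrosis factor, was at 1.51, 1.11, 3.18, 2.47 and 1.03 CPM in ROBO1pos and 85.0, 107, 283, 297 and 221 CPM in ROBO1neg. It was 107-fold higher in ROBO1neg (log2 fold change -6.74, SE 0.45, adjusted p = 4.4e-09), and its lowest ROBO1neg library was far above its highest ROBO1pos library. ICAM1, an adhesion molecule that leukocytes bind, was at 3.56, 3.19, 5.04, 4.203 and 3.82 CPM in ROBO1pos and 54.4, 52.2, 148, 162 and 117 CPM in ROBO1neg. It was 27.0-fold higher in ROBO1neg, without overlap (log2 fold change -4.76, SE 0.36, adjusted p = 1.7e-08). Without ROBO1neg replicates 3, 4 and 5 the log2 fold changes were -5.70 for TNFAIP2 and -3.76 for ICAM1. The neighbours of ICAM1 were at a median of 0.65, and ICAM1 was at -5.41 once this was subtracted. IER3, an immediate early gene that modulates survival, was at 9.33, 8.89, 12.9, 12.2 and 12.4 CPM in ROBO1pos and 39.8, 31.8, 48.5, 49.99 and 37.1 CPM in ROBO1neg (log2 fold change -1.90, SE 0.14, adjusted p = 1.3e-08), and its ROBO1neg libraries were more even.

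SOD2, the mitochondrial superoxide dismutase and a classical NF-kB target, was higher in ROBO1pos. Its level was 54.6, 61.4, 55.3, 58.4 and 62.9 CPM in ROBO1pos and 45.7, 39.5, 47.4, 50.02 and 47.5 CPM in ROBO1neg, with no overlap but a difference of only 1.27-fold (log2 fold change 0.35, SE 0.06, adjusted p = 0.00014). SOD2 overlaps ACAT2 and WTAP in the annotation, so its count may share reads with them if strand was not used. PTGS2, which encodes cyclooxygenase 2, had too few counts for the test, with 0 to 3 counts per ROBO1pos library and 8 to 31 per ROBO1neg library. Its summed counts of 10 and 100 gave a ratio of 9.93 for ROBO1neg over ROBO1pos (95% exact binomial interval 5.18 to 21.3, for counting error only). VCAM1, an adhesion molecule mostly known from endothelium, had 0 counts in all libraries.

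**Figure D4:**
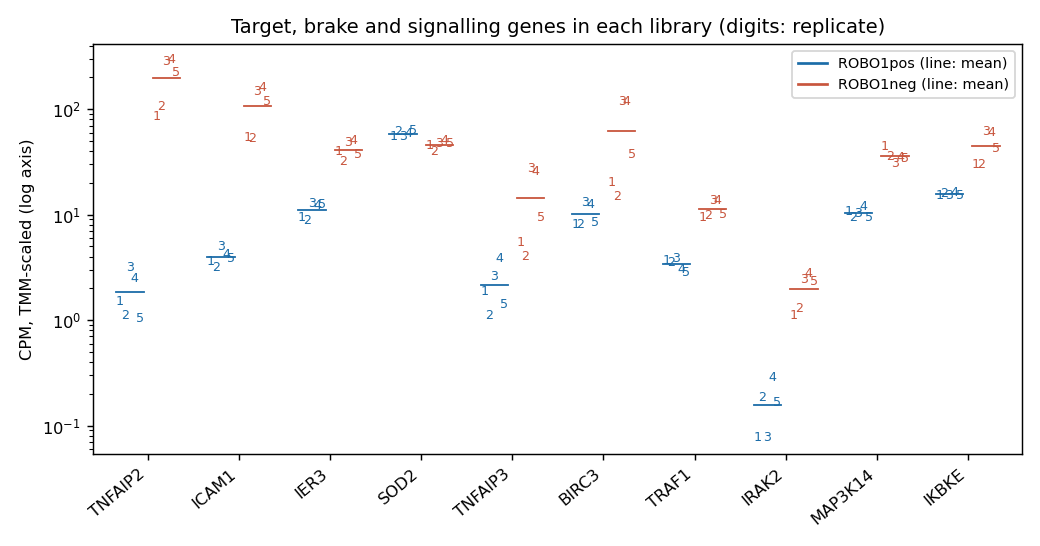
CPM of effector targets, TNFAIP3, BIRC3, TRAF1, IRAK2 and 2 kinases in each library on a log axis, with each digit marking the replicate and each line the group's mean. SOD2 is the gene whose ROBO1pos digits lie above its ROBO1neg digits, and in TNFAIP3 and BIRC3 the ROBO1neg digits are drawn apart (6.77-fold and 8.004-fold) while in MAP3K14 they are close.

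Other genes of the pathway were read from lists of 51 further components and 46 further targets. Of the components, 24 were called higher in ROBO1neg, 12 higher in ROBO1pos, 7 were not called and 8 were not tested. Of all tested genes 82% were called (40.4% with the higher level in ROBO1neg, 41.6% in ROBO1pos). The share of the 43 tested components called in either direction was near that background. Their directions were less even than those of all tested genes, with 24 of 43 higher in ROBO1neg and 12 of 43 higher in ROBO1pos. At least 2-fold higher in ROBO1neg were 20.9% of the tested components, against 16.8% of all tested genes. For ROBO1pos these shares were 4.65% and 13.5%. The median log2 fold change of the tested components was -0.30. PDLIM2, which promotes the breakdown of nuclear RELA, and TNFRSF12A, the receptor of the cytokine TWEAK, were called higher in ROBO1neg, at log2 fold changes of -2.43 and -2.66. IL1R2, a decoy receptor that binds interleukin 1 without signalling, went the other way, at 5.63 ± 0.893 CPM in ROBO1pos and 0.0799 ± 0.0405 CPM in ROBO1neg (log2 fold change 6.07, SE 0.25, adjusted p = 2.7e-11). TAB1, a partner of the kinase TAK1, was called higher in ROBO1pos at 0.81.

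Of the 46 further targets, 31 were called higher in ROBO1neg, 3 higher in ROBO1pos, 1 was not called and 11 were not tested, beside the same shares of all tested genes, with a median of -2.85 over the tested ones. PLAUR, the receptor of urokinase, and EHD1, an endosomal ATPase, were called higher in ROBO1neg, at -3.42 and -1.16 (log2). EFNA1, an ephrin ligand, SAT1, an enzyme of polyamine breakdown, and LAMB3, a laminin chain, were the 3 targets higher in ROBO1pos, at 0.93, 0.76 and 0.63. Of the targets at 1 CPM or more in ROBO1neg, 15 of 35 spanned at least 2-fold between ROBO1neg libraries, against 3 of 41 components and 3.59% of all such genes. Several of these targets also respond to other pathways, and the lists share no gene with the 40 members.

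**Figure D5:**
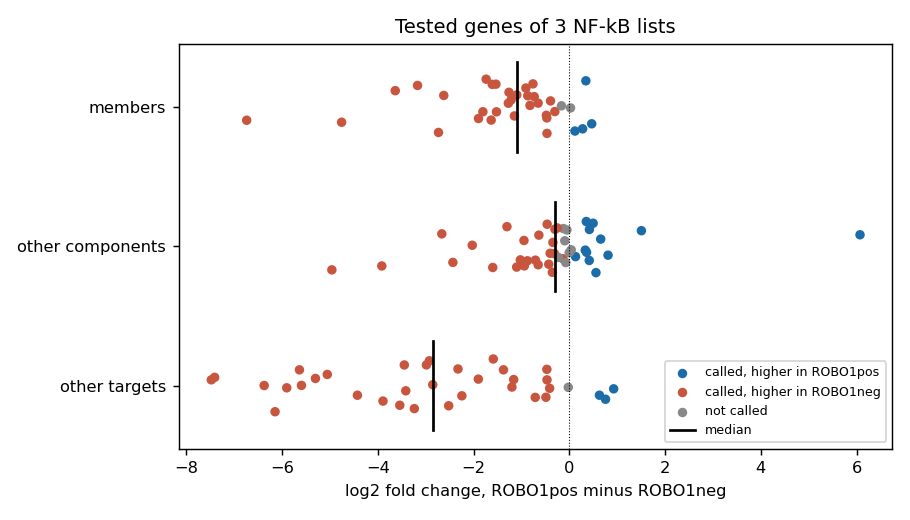
Log2 fold change of every tested gene of the 40 members, of the further components and of the further targets, ROBO1pos minus ROBO1neg, with the median of each list as a black line. The medians are at -1.10, -0.30 and -2.85, and points are coloured by call; vertical scatter within a list only separates the points.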

How the data were processed

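Polyadenylated RNA of 10 libraries was measured, 5 of ROBO1pos and 5 of ROBO1neg SW480 cells, with a stranded kit per the labels' protocols. The authors deposited raw read counts per gene symbol, 1 file per library. The submitters' processing notes name GRCh38, STAR 2.6.0c, SAMtools 1.9 and DESeq2 1.24.0. How reads were counted, with which strand setting and annotation, is not given in the sources used. Entries that name no gene were left out, and genes held 57.5% to 63.8% of the listed reads per library.

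The fit was made in R 4.3.3 with edgeR 4.0.16: default filterByExpr, TMM scaling and a quasi-likelihood fit on group, with Benjamini-Hochberg adjustment over all tested genes at a threshold of 0.05. Standard errors come from the coefficient and its F statistic. At 1 CPM a gene rests on 23.2 to 29.5 counts per library. On simulated counts for this comparison (14941 genes), 49 of 50 genes changed 1.5-fold and 50 of 50 changed 2-fold were called, with 10 of 14741 unchanged genes. The changed genes were drawn from those with a mean of at least 50 counts, and every gene was given the same dispersion. These rates therefore do not carry over to members with few counts or with a wide spread between libraries. Within-group pairs of libraries differed by 3.42 to 20.8 times the sampling variance, so no library was a copy of another's counts. Whether libraries came from the same culture or RNA cannot be read from this ratio. In each group the lowest ratio was between replicates 3 and 4, at 3.42 in ROBO1neg and 4.11 in ROBO1pos. Alternatives were RLE or library-size scaling, other filters, voom from limma 3.58.1, DESeq2 1.42.0, a replicate block, a 1.5-fold minimum in the test, omission of single libraries, and subtraction of the median of the 20 nearest tested genes on each side (RefSeq positions, GRCh38.p14, for 14607 genes). The members and lists were chosen with earlier results of these data known. Per-library values are given for members with an absolute log2 fold change of 1 or more, for SOD2 and for Rel and IkB genes. Of the further lists, up to 5 called genes by smallest adjusted p are named, at most 3 per direction (2 of them are not reported here); LAMB3, TRAF5, RNF31, RBCK1, SHARPIN, OTULIN, NKRF, OTUD7B, NFKBID, the epithelial markers and the targets in the closing section were named after their values were seen. Of the members, 6 overlap another listed gene that is no microRNA.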

Additional observations from a re-analysis of the deposited data

Results flagged for a closer look

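Among 94 sets of 5 libraries checked (members, named genes of the further lists and ROBO1, in each population), 2 had 1 library far from the other 4 by Dixon's criterion, where about 1 in 20 is expected by chance. TNIP1 was at 82.6 CPM in ROBO1pos replicate 4 and between 75.5 and 77.1 CPM in the other ROBO1pos libraries. TNFRSF12A was at 29.7 CPM in ROBO1pos replicate 5 and between 16.12 and 20.04 CPM in the other ROBO1pos libraries. The ROBO1neg pattern, in which several libraries were high, is not of a kind that this criterion marks.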

How the results depend on the processing

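The number of members called higher in ROBO1neg lay between 21 and 31 in every alternative, and from 29 to 31 when 1 library was left out; the number higher in ROBO1pos was 3 or 4 when 1 library was left out. The test against 1.5-fold called 0 members higher in ROBO1pos, 3 further components higher in ROBO1pos and 12 higher in ROBO1neg, and over all genes 2938 and 3298. Without ROBO1neg replicates 3, 4 and 5, or without replicates 3 and 4 of both groups, 2 members were called higher in ROBO1pos, and the median log2 fold change of tested members was -0.73 and -0.74. That median was -0.86 with the filter of 5 CPM in 5 libraries, which leaves out BCL3, IRAK2, TLR2 and TNFAIP3, and -0.88 once the neighbours' median was removed; leaving out 1 library gave -1.16 to -0.97. CHUK, not called in any fit, turned to -0.013 without ROBO1neg replicate 2 (the 10 fits without 1 library gave -0.013 to 0.039), -0.032 without ROBO1neg replicates 1 and 2, and -0.0041 once the neighbours' median was removed. With the replicate number as a block, members higher in ROBO1neg numbered 30 and members higher in ROBO1pos 3, with NFKBIB gained (adjusted p = 0.014) and IRAK1 lost (adjusted p = 0.055). The numbers were not taken as a pairing, although the deviations leave a hint of one: those of same-numbered libraries correlated at 0.062 to 0.169, over 0.1 in 3 of 5 pairs, and 8 of 10 libraries correlated best with their own number. CPM on library size alone moved no member's mean by as much as its SD. Genes below about 1 CPM, such as IRAK2, BCL3 and PTGS2 in ROBO1pos, rest on few counts.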

Other observations

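Secreted NF-kB targets were among the genes with uneven ROBO1neg libraries; the 4 described here were chosen after their values were seen. CXCL1, a neutrophil chemokine, was at 2.04, 1.64, 41.3, 42.3 and 8.94 CPM in ROBO1neg replicates 1 to 5 and at 0.310, 0.148, 0.775, 0.606 and 0.0822 CPM in ROBO1pos. CXCL8, which encodes interleukin 8, was at 1.02, 0.861, 14.3, 12.1 and 2.596 CPM in ROBO1neg and 0.232, 0.519, 0.659, 0.525 and 0.904 CPM in ROBO1pos, and CCL2, a monocyte chemokine, at 0.425, 0.646, 9.77, 12.6 and 2.09 CPM and 0.116, 0.0741, 0.155, 0.162 and 0 CPM. For CXCL1, CXCL8 and CCL2, ROBO1neg replicates 1 and 2 were the lowest and replicates 3 and 4 the highest, and the CXCL8 level of ROBO1neg replicate 2 lay below that of ROBO1pos replicate 5. LCN2, the iron-binding lipocalin, was at 32.4, 57.7, 222, 241 and 162 CPM in ROBO1neg and 0.387, 0.148, 1.74, 1.25 and 0.493 CPM in ROBO1pos, so that all ROBO1neg libraries were far above ROBO1pos.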
